A study of Mus musculus with 6 samples.

Results

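The genes described here are 8 members of the neurotrophin system and its relay to the nucleus: the ligands Bdnf and Ntf3, the receptors Ntrk2, Ntrk3, Ngfr and Sort1, the transcription factor gene Creb1, and Vgf. They were chosen by name, as genes linked to depression, and each matched 1 row of a table of 55414 genes. The table holds hippocampal RNA from 3 CerM libraries and 3 vehicle libraries of mice. The labels give treatment and tissue. The meaning of CerM, its dose and duration, and the strain, sex and age of the mice are not given in the sources used here. By its title, the study asks how a disturbed gut flora, through ceramides, bears on mitochondria and on the depression that corticosterone causes. The titles call the libraries biological replicates, but do not say that each came from a separate mouse. The errors below therefore rest on the spread between libraries.

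Neurotrophins are secreted proteins that keep neurons alive and strengthen synapses. They are made as precursors, sorted into granules, cleaved by proteases and released. The mature proteins signal through Trk receptor tyrosine kinases, while the precursors bind the p75 receptor together with sortilin and can have opposite effects. Trk signalling and calcium entry both lead to phosphorylation of CREB, which switches on activity-dependent genes, Bdnf among them. In the hippocampus the BDNF pathway is known for its part in synaptic plasticity and in the response to stress and antidepressants, and Vgf, a granule protein induced by BDNF, has been tied to the same behaviours in rodents.

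CREB binds the cAMP response element, whose palindrome reads TGACGTCA and whose core reads TGACG. RefSeq promoter windows on GRCm38.p6, which run from 250 bases before to 50 bases after an annotated start, were searched for both on both strands. The core lies within the palindrome, so a window with the palindrome counts for both. The windows matched 5 of the 8 members with 12 starts: 7 for Bdnf, 2 for Ntf3 and 1 each for Ntrk2, Ngfr and Creb1. Windows of Ntrk3, Sort1 and Vgf were not searched, so nothing is said here of their promoters. None of the 12 windows searched holds the palindrome, which is in 1.79% of all 32851 windows. At that share 12 windows are too few for its absence to set the members apart. Of the 12, 1 holds the core, which is in 20.8% of all windows. That one belongs to Bdnf, where the core lies 35 to 31 bases before the start. It is shown beside the windows of Scg2 and Chgb, granule genes of the same pathway lists that hold the palindrome 68 to 61 and 72 to 65 bases before the start. These serve as examples of the palindrome, and the share of list genes that hold it is not given here. The 250 bases before each start are printed 5′ to 3′ on the strand of the gene, with the core or palindrome in capitals.
Bdnf (chr2:109692186-109692435, + strand): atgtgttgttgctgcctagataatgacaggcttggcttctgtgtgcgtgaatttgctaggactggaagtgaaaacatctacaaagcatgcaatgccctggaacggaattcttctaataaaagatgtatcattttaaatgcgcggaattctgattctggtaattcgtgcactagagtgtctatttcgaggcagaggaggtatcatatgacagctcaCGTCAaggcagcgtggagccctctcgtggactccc
Scg2 (chr1:79440027-79440276, - strand): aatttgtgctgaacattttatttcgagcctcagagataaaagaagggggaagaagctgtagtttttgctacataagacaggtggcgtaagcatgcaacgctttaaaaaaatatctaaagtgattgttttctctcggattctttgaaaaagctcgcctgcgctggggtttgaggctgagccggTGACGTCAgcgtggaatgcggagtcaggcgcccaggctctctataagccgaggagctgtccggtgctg
Chgb (chr2:132781392-132781641, + strand): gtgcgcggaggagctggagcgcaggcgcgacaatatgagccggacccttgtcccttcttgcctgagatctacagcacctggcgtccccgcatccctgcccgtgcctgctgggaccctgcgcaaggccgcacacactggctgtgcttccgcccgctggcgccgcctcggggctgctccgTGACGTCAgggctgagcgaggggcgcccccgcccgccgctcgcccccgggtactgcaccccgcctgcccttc
A match describes these letters and not a bound site. The table gives 1 value per gene, so the 7 Bdnf starts cannot be separated in the expression data.

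Levels are given as TPM (the share of a gene's transcripts among all transcripts), which is scaled for transcript length and library total. Read numbers cannot be recovered from TPM, so depth is unknown. Standard deviations (SD) give how far the 3 libraries of a group lie apart. Standard errors (SE) and intervals come from the limma fit. It pools both groups and draws each gene's variance toward a trend over all tested genes. The libraries held between 14546 and 15058 genes at 1 TPM or more. All 5 dentate granule, 4 CA1 and 3 CA3 marker genes stood at 1 TPM or more in every library, so the defining markers of the labelled tissue were present. The libraries differed in other marker sums. Choroid plexus markers summed to 303 to 10939 TPM in CerM libraries and 253 to 15710 TPM in vehicle libraries, high in CerM replicates 1 and 3 and in vehicle replicate 3. Adipocyte markers summed to 525 TPM in CerM replicate 3 and to at most 1.6 TPM in the other libraries. Vehicle replicate 1 had the lowest value of all 5 dentate granule markers and of all 7 oligodendrocyte markers, and the highest value of 6 of 7 neocortex markers. CerM replicate 2 lay above the rest over the median tested gene, by 0.12 on the log2 scale from the mean of all libraries, against −0.07 to 0.04 in the other 5.

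No member differed between CerM and vehicle hippocampus beyond the spread between libraries. The 2 groups overlapped for all 8 members. Of the 14916 tested genes 7.3% did not overlap, and 8 members are too few to differ from that share. Limma on log2(TPM + 1), adjusted over all tested genes, called 0 of the 8 members and 0 genes in all (0% of those tested), with a smallest adjusted p of 0.989. At an unadjusted p below 0.05 there were 0 members and 402 genes in all (2.7%). All 8 members passed the minimum mean of 1 TPM. Fold changes were positive for 6 members and negative for 2, with a median log2 fold change of 0.08, beside 58.8% positive and a median of 0.03 over all tested genes. The 95% confidence intervals lay within 2-fold of TPM + 1 for all 8 members and within 1.5-fold for 6 of them, Ntf3 and Ngfr being the exceptions. Ngfr averaged 1.35 TPM, so for this gene the added 1 narrows the interval. Its SE was 0.33, and 0.54 with 0.1 added to TPM in place of 1. The Ngfr interval therefore sets no 2-fold limit on TPM itself.

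**Figure D1:**
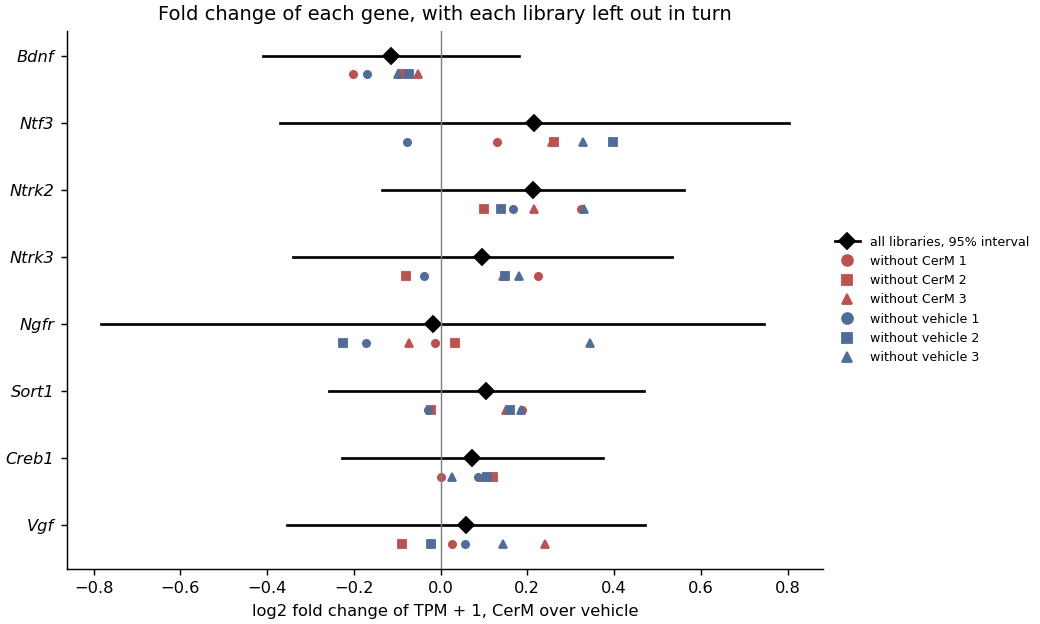
Log2 fold change of TPM + 1, CerM over vehicle, for each of the 8 genes (diamond) with its 95% confidence interval from limma (line); small symbols give the fold change with 1 library left out, red for a CerM library and blue for a vehicle library. Every interval crosses 0, and with 1 library left out the points of Bdnf stay between −0.20 and −0.05 while those of Ngfr run from −0.23 to 0.34.

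Bdnf, which encodes the brain-derived neurotrophic factor and is the main TrkB ligand, averaged 14.5 ± 1.72 TPM in CerM and 15.8 ± 1.16 TPM in vehicle (SD, n = 3 each), a difference within its spread. It had 16.5, 13.9 and 13.2 TPM in CerM replicates 1 to 3, against 14.5, 16.7 and 16.1 TPM in vehicle replicates 1 to 3. Of the CerM libraries, replicates 2 and 3 were below every vehicle library, whereas replicate 1 was above all but vehicle replicate 2. The log2 fold change was −0.11 ± 0.13 (SE), with a 95% confidence interval of −0.41 to 0.18 (limma, adjusted p = 0.989). In TPM + 1 this is a factor of 0.924, with an interval of 0.753 to 1.13. Bdnf varied by 9.72% over the 6 libraries (coefficient of variation), the second smallest spread among the members, and its highest library had 1.27 times its lowest.

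Ntf3, which encodes neurotrophin-3, the main TrkC ligand, was even between the groups except for 1 vehicle library. It had 12.84, 10.54 and 10.64 TPM in CerM replicates 1 to 3, against 6.04, 12.6 and 11.4 TPM in vehicle replicates 1 to 3. Vehicle replicate 1 was the lowest by far, and the other 5 libraries overlapped closely. On the log2 scale the fold change was 0.22 ± 0.25, with an interval of −0.37 to 0.80 (limma, adjusted p = 0.989). Without vehicle replicate 1 the value was −0.08. In the mouse hippocampus Ntf3 is known as a gene of dentate granule cells. The 5 dentate granule markers summed to 98.3, 103 and 78.7 TPM in CerM replicates 1 to 3, against 33.2, 94.4 and 89.9 TPM in vehicle replicates 1 to 3. The library low in Ntf3 was thus also the library low in these markers. It was lowest as well for all 3 CA3 markers, which summed to 86.1, 110 and 93.9 TPM in CerM replicates 1 to 3, against 59.3, 111 and 103 TPM in vehicle replicates 1 to 3. The summed pyramidal and excitatory markers were lowest there too, at 1783 TPM, with 1892 to 2578 TPM in the other 5 libraries. Of these markers Slc17a7 was not lowest there, at 724 TPM, above CerM replicates 1 and 3 (704 and 699 TPM). The CA1 sum was not lowest there either, at 246 TPM, above CerM replicates 1 and 3 (230 and 241 TPM). With the dentate granule marker score as a covariate, an alternative added after seeing the data, the log2 fold change of Ntf3 was −0.06. That score was lowest in the library lowest in Ntf3, so this value and the one without vehicle replicate 1 are not separate results. Vehicle replicate 1 was also lowest for all 7 oligodendrocyte markers and highest for 6 of 7 neocortex markers. The part of any of these markers in the Ntf3 values was not tested. Fewer cells of a type and less RNA per cell cannot be told apart in bulk tissue.

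**Figure D2:**
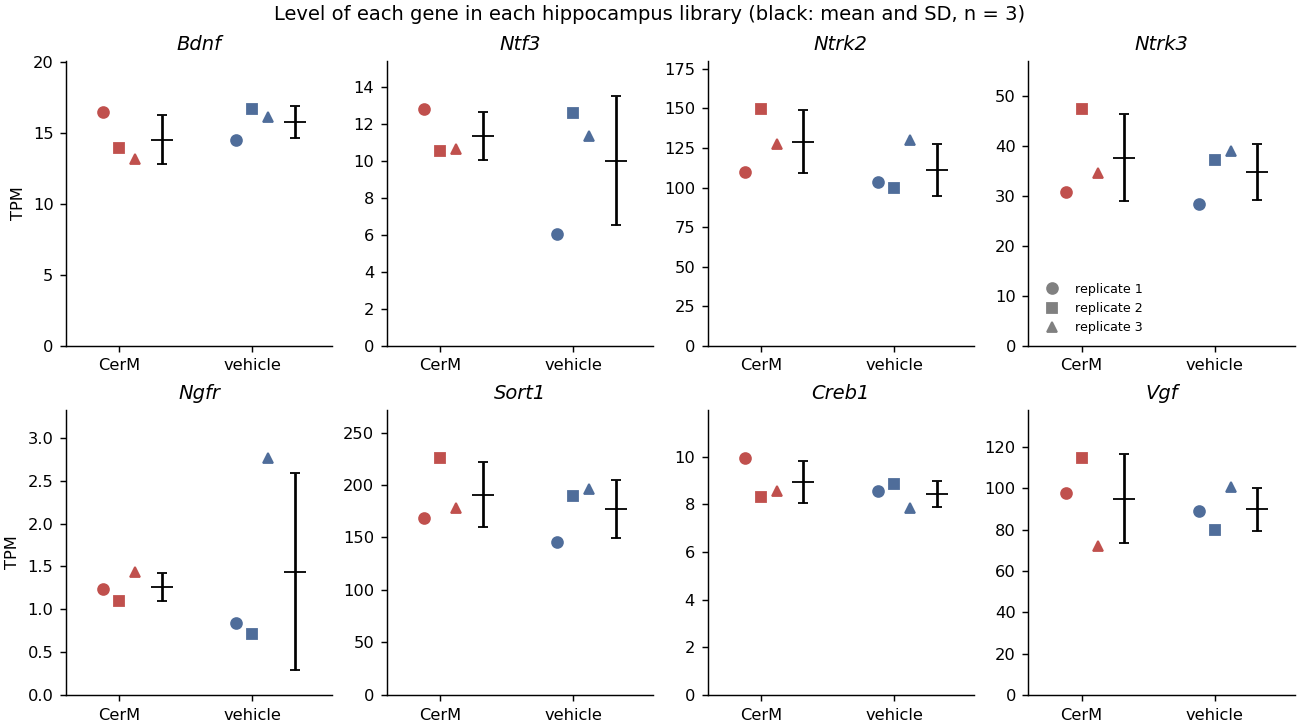
TPM of each of the 8 genes in each library (red, CerM; blue, vehicle; symbols give the replicate number), with the mean and SD of each group in black (n = 3 each). The groups overlap in all 8 panels; vehicle replicate 1 is low for Ntf3 at 6.04 TPM, and vehicle replicate 3 is high for Ngfr at 2.77 TPM.

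Ntrk2 encodes TrkB, the BDNF receptor, which neurons carry in full length and astrocytes mostly in a truncated form without the kinase. It had 110, 150 and 128 TPM in CerM replicates 1 to 3, against 104, 99.6 and 130 TPM in vehicle replicates 1 to 3. CerM replicate 2 was the highest, and vehicle replicate 3 lay above CerM replicates 1 and 3. Its log2 fold change was 0.21 ± 0.15, with an interval of −0.14 to 0.56 (limma, adjusted p = 0.989), which gives a factor of 1.16 in TPM + 1 (0.910 to 1.48). Ntrk2 had the smallest unadjusted p of the 8 members, 0.194 from limma. Astrocyte markers, 7 of 7 detected, summed to 1472, 1798 and 1566 TPM in CerM replicates 1 to 3, against 1513, 1517 and 1543 TPM in vehicle replicates 1 to 3. CerM replicate 2 was thus the highest for the marker sum as for Ntrk2. Of the single markers, Aldh1l1 was highest in vehicle replicate 1 and Gjb6 in CerM replicate 3. The match was not particular to astrocytes. CerM replicate 2 also had the highest dentate granule, CA1, pyramidal and excitatory, interneuron, oligodendrocyte, oligodendrocyte precursor and microglia sums. The CA3, endothelial, mural, fibroblast, choroid plexus, neocortex and adipocyte sums were highest in other libraries. The part of these markers in the Ntrk2 difference was not tested. Without CerM replicate 2 the fold change of Ntrk2 was 0.10. GENCODE M21 lists 10 Ntrk2 transcripts, 7 of them protein-coding, and a value per gene does not separate full-length from truncated TrkB.

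Ntrk3, which encodes TrkC, the receptor of neurotrophin-3, had 30.9, 47.5 and 34.6 TPM in CerM replicates 1 to 3, against 28.5, 37.2 and 39.0 TPM in vehicle replicates 1 to 3. The highest value was again in CerM replicate 2 and the lowest in vehicle replicate 1, and the other 4 libraries were mixed. Its log2 fold change was 0.10 ± 0.19 (−0.34 to 0.53; limma, adjusted p = 0.989), and it was −0.08 without CerM replicate 2 and −0.04 without vehicle replicate 1. An exon of Ntrk3 overlaps Gm9885 on the opposite strand, which had 3.01 to 3.92 TPM. Whether the libraries keep strand is not given in the sources used here, so reads from the shared stretch may belong to either gene. Other genes with exons overlapping a member had at most 0.15 TPM.

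The receptors for the precursors differed widely in level. Ngfr, which encodes the p75 neurotrophin receptor, was the least abundant member and the most variable, at 55.2% over the 6 libraries. It had 1.24, 1.1 and 1.43 TPM in CerM replicates 1 to 3, against 0.84, 0.71 and 2.77 TPM in vehicle replicates 1 to 3. All 3 CerM libraries lay between the low and the high vehicle libraries. On the log2 scale the fold change was −0.02 ± 0.33 (−0.78 to 0.75; limma, adjusted p = 0.999), and 0.34 without vehicle replicate 3. That library also had the highest choroid plexus sum, though CerM replicates 1 and 3 were high as well. Choroid plexus markers, 5 of 5 detected, summed to 9304, 303 and 10939 TPM in CerM replicates 1 to 3, against 253, 260 and 15710 TPM in vehicle replicates 1 to 3. With their score as a covariate, also added after seeing the data, the Ngfr value was −0.23. Fibroblast markers summed to 179, 70.2 and 256 TPM in CerM replicates 1 to 3, against 96.5, 74.9 and 278 TPM in vehicle replicates 1 to 3. Of these 5 markers Igf2 was highest in vehicle replicate 3 and the other 4 in CerM replicate 3, and their part in the Ngfr values was not tested. In the brain p75 is best known from cholinergic neurons of the basal forebrain. The 5 markers of those neurons stayed under 1 TPM in every library, with sums of 0.26 to 1.04 TPM in CerM and 0.37 to 0.79 TPM in vehicle.

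Sort1 encodes sortilin, the sorting receptor that carries proBDNF into the secretory pathway and pairs with p75. It was the most abundant member, at 169, 226 and 178 TPM in CerM replicates 1 to 3, against 146, 190 and 196 TPM in vehicle replicates 1 to 3. As for Ntrk3, CerM replicate 2 was the highest and vehicle replicate 1 the lowest. The log2 fold change was 0.11 ± 0.16 (−0.26 to 0.47; limma, adjusted p = 0.989), and it was −0.02 without CerM replicate 2 and −0.03 without vehicle replicate 1.

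**Figure D3:**
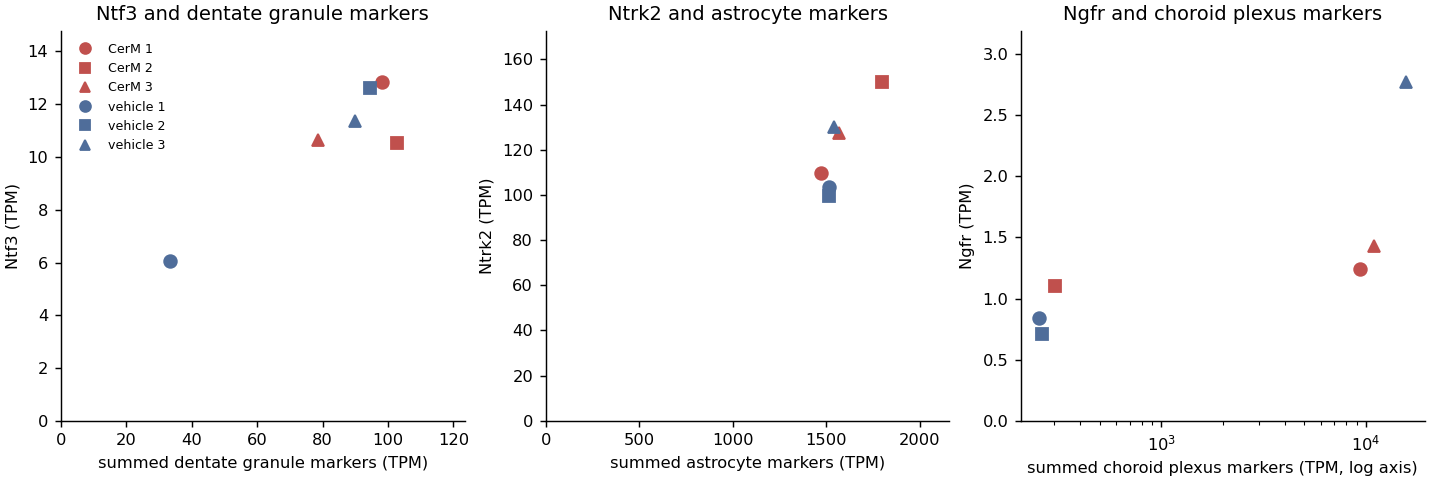
TPM of Ntf3, Ntrk2 and Ngfr (vertical axes) beside the summed TPM of dentate granule, astrocyte and choroid plexus markers (horizontal axes, the last one on a log axis) in each of the 6 libraries, red for CerM and blue for vehicle. The library with the least Ntf3 (6.04 TPM) has the lowest dentate granule sum (33.2 TPM), and the library with the most Ngfr (2.77 TPM) has the highest choroid plexus sum (15710 TPM).

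Creb1, the gene of the transcription factor that Trk and calcium signals activate, was the least variable member, at 8.23% over the 6 libraries. It had 9.96, 8.29 and 8.56 TPM in CerM replicates 1 to 3, against 8.58, 8.87 and 7.84 TPM in vehicle replicates 1 to 3. The groups overlapped, with CerM replicate 1 highest and vehicle replicate 3 lowest. Creb1 had a log2 fold change of 0.07 ± 0.13 (−0.23 to 0.37; limma, adjusted p = 0.989), and near 0 without CerM replicate 1 (0.00064). CREB is controlled largely by phosphorylation, which RNA does not show.

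Vgf encodes a neuropeptide precursor of dense core granules whose gene is induced by BDNF and by neuronal activity. It had 97.7, 115 and 72.2 TPM in CerM replicates 1 to 3, against 89.2, 79.7 and 101 TPM in vehicle replicates 1 to 3. Both the highest and the lowest of the 6 values were CerM libraries. Its log2 fold change was 0.06 ± 0.18 (−0.35 to 0.47; limma, adjusted p = 0.990). It was 0.24 without CerM replicate 3, the library with adipocyte markers, and −0.09 without CerM replicate 2. Bdnf and Vgf did not peak in the same library: Bdnf was highest in vehicle replicate 2, where Vgf was the second lowest.

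Ligand and receptor were also set against each other within each library, which cancels the library's scale. Bdnf stood at 0.1502, 0.0930 and 0.104 of the Ntrk2 level in CerM replicates 1 to 3, against 0.140, 0.168 and 0.124 in vehicle replicates 1 to 3. CerM replicates 2 and 3 had the 2 lowest ratios, and CerM replicate 1 the second highest. The log2 difference was −0.34, with a two-sided exact permutation p of 0.3. Ntf3 stood at 0.416, 0.222 and 0.307 of Ntrk3 in CerM replicates 1 to 3, against 0.212, 0.338 and 0.292 in vehicle replicates 1 to 3, a log2 difference of 0.15 (exact permutation p = 0.7). The sign of this difference turned without CerM replicate 1 (−0.08) or without vehicle replicate 1 (−0.04). With 3 libraries against 3 the smallest p possible is 0.1. These 2 ratios were chosen after seeing the values.

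By level, in TPM, the order was Sort1, Ntrk2, Vgf, Ntrk3, Bdnf, Ntf3, Creb1 and Ngfr. The ranges over the 6 libraries were apart between Vgf and Ntrk3, between Ntrk3 and Bdnf, between Bdnf and Ntf3, and between Creb1 and Ngfr. They overlapped between Sort1 and Ntrk2 (from 145.8 TPM up and to 150 TPM at most), though Sort1 was higher within each of the 6 libraries. Ntrk2 likewise exceeded Vgf in all 6 while the ranges overlapped. Ntf3 and Creb1 could not be ordered, since Ntf3 was higher in 5 of 6 libraries and lower in vehicle replicate 1. Sort1, Ntrk2 and Vgf ranked above 93.3%, 89.9% and 86.4% of tested genes in each library or higher, whereas Ngfr ranked above only 2.23% to 15.5%. Of the 8 members, 4 had their highest value in CerM replicate 2 and 3 their lowest in vehicle replicate 1. Without vehicle replicate 1 the fold changes of Ntf3, Ntrk3 and Sort1 turned negative, at −0.08, −0.04 and −0.03 on the log2 scale.

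The genes around the members were described in 8 lists, with 122 of 127 genes tested. Limma called 0 of them, 3 had an unadjusted p below 0.05, and 9 (7.38%) had groups that did not overlap, beside 7.3% of all tested genes. Fold changes were positive for 65 and negative for 57, with a median of 0.02.

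Among the other ligands and the proteases that mature them, 10 of 14 genes were tested, 6 above and 4 below 0 (median log2 fold change 0.05, and −0.05 without CerM replicate 2). Ntf5, which encodes neurotrophin-4, reached at most 0.59 TPM in CerM and 0.53 TPM in vehicle. Furin, which cleaves neurotrophin precursors inside the cell, had 15.3 ± 1.72 TPM in CerM and 12.2 ± 2.94 TPM in vehicle (SD, n = 3 each). Plat, the tissue plasminogen activator that starts their cleavage outside the cell, had 30.6 ± 4.25 TPM in CerM and 25.9 ± 2.88 TPM in vehicle. Furin and Plat had log2 fold changes of 0.33 ± 0.19 and 0.23 ± 0.14 (SE). Without vehicle replicate 1 they were 0.145 and 0.146, and without CerM replicate 2 Plat was at 0.146. Mmp9, another protease able to cleave proBDNF, had 0.76 to 1.48 TPM in CerM and 0.76 to 1.23 TPM in vehicle, a log2 fold change of 0.10 ± 0.23.

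Of the other receptors and coreceptors 9 of 10 genes were tested, 6 above and 3 below 0 (median 0.04, and −0.05 without CerM replicate 2). Sorcs2, a sortilin relative that binds p75, had a log2 fold change of 0.17 ± 0.19, Nradd, a p75-related gene, 0.20 ± 0.19, and the Trk and p75 scaffold gene Kidins220 −0.05 ± 0.12.

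Inside the cell, 21 of 29 genes for Trk adaptors and kinases lay above 0 (median 0.05, and −0.02 without CerM replicate 2). Shc1, an adaptor that links Trk receptors to Ras, had 6.24, 6.65 and 7.81 TPM in CerM replicates 1 to 3, against 3.71, 4.55 and 5.82 TPM in vehicle replicates 1 to 3. The groups did not overlap, and the log2 fold change was 0.48 ± 0.18 (limma, unadjusted p = 0.0290, adjusted p = 0.989). It was 0.27 without vehicle replicate 1 and CerM replicate 3 together. Frs3, another Trk adaptor gene, was at 0.49 ± 0.28, with 23.5 TPM in CerM replicate 2 and 9.23 to 12.1 TPM in the other 5 libraries, and was at 0.16 without that library. Of 12 genes for p75 adaptors 9 lay above 0 (median 0.11). The 2 with the smallest p lay below, Bex1 at −0.24 ± 0.13 and Bex3, a binding partner of p75, at −0.12 ± 0.08. Bex1 was at −0.135 without CerM replicate 3.

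Genes for the CREB family, its coactivators and its kinases lay above 0 in 10 of 16 cases (median 0.08). Atf1, a close relative of Creb1 that binds the same element, had 10.8, 12.2 and 14.1 TPM in CerM replicates 1 to 3, against 10.1, 8.74 and 9.94 TPM in vehicle replicates 1 to 3. All CerM libraries lay above all vehicle libraries, and the log2 fold change was 0.33 ± 0.14 (limma, unadjusted p = 0.0461, adjusted p = 0.989). Sik1, a kinase that restrains the CREB coactivators, was at 0.35 ± 0.19. The coactivator genes Crtc1 and Crebbp were at 0.21 ± 0.17 and 0.06 ± 0.15, and Crem, whose products include a CREB repressor, at −0.09 ± 0.14. Crtc1 was at 0.06 without CerM replicate 2 and at 0.07 without vehicle replicate 1, Crebbp at −0.07 without CerM replicate 2, and Sik1 at 0.21 without that library.

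Dense core granule genes, which share their compartment with Vgf, were centred on 0, with 6 of 14 above and a median of −0.00, which was 0.06 without CerM replicate 3. Scg2, a granin, had 178, 215 and 169 TPM in CerM replicates 1 to 3, against 171, 194 and 201 TPM in vehicle replicates 1 to 3. Chgb, another granin, had 470, 471 and 459 TPM in CerM replicates 1 to 3, against 445, 502 and 462 TPM in vehicle replicates 1 to 3. The groups of both genes overlapped, at log2 fold changes of −0.01 ± 0.12 and −0.01 ± 0.08. Chga, the chromogranin A gene, was at −0.14 ± 0.11. It was at −0.07 without CerM replicate 3, and at −0.01 without vehicle replicate 1 and CerM replicate 3 together. Pcsk1, the prohormone convertase that cleaves granule cargo, had 13.2 TPM in vehicle replicate 1 and 6.98 to 8.06 TPM in the other 5 libraries, a log2 fold change of −0.21 ± 0.22.

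**Figure D4:**
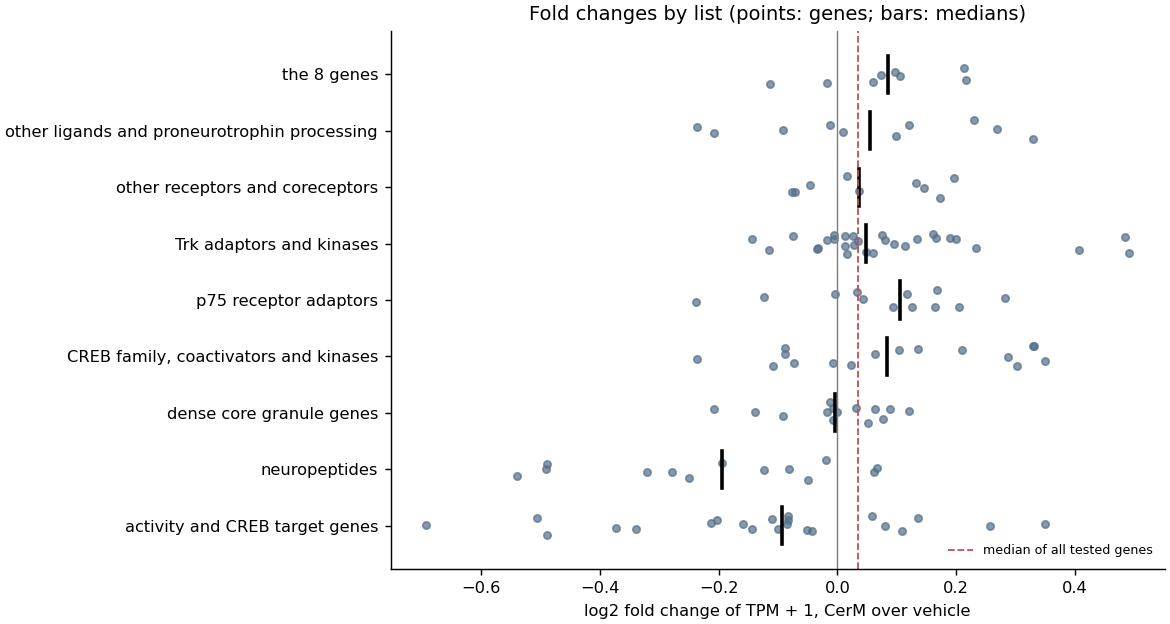
Log2 fold change of TPM + 1, CerM over vehicle, of the 8 genes and of the tested genes of 8 pathway lists (points), with each list's median (black bar) and the median of all 14916 tested genes (dashed line, 0.03). Neuropeptides and activity genes have the lowest medians, −0.20 and −0.09, and no gene shown passed the test.

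Neuropeptide genes and activity and CREB target genes had the lowest medians. Of 13 neuropeptide genes 11 lay below 0 (median −0.20), and of 22 activity and CREB target genes 16 (median −0.09). Vehicle replicate 1 had the highest score of both lists, 0.43 and 0.33 above the mean of all libraries, against −0.27 to 0.03 and −0.15 to 0.07 in the other 5. Without it the medians were −0.08 and −0.05, and without it and CerM replicate 3 they were −0.00 and −0.02. Without CerM replicate 2 they were −0.31 and −0.19, and without CerM replicate 3 alone −0.10 and −0.06. Without vehicle replicate 3 the neuropeptide median was −0.30. Vehicle replicate 1 was also the library with the most neocortex marker TPM, 137 TPM, with 81.2 to 93.9 TPM in the other 5, and the part of these markers in the medians was not tested.

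Adcyap1, the gene of the peptide PACAP, had 5.77, 5.21 and 5.67 TPM in CerM replicates 1 to 3, against 11.9, 7.06 and 6.45 TPM in vehicle replicates 1 to 3, without overlap. Its log2 fold change was −0.49 ± 0.22, and −0.24 without vehicle replicate 1. Tac1, the substance P precursor gene, was at −0.32 ± 0.16, and at −0.17 without vehicle replicate 1. Npas4, an activity-induced transcription factor that acts on Bdnf promoters, had 2.14, 2.91 and 2.84 TPM in CerM replicates 1 to 3, against 4.07, 4.16 and 4.17 TPM in vehicle replicates 1 to 3. Its groups did not overlap, at −0.51 ± 0.16 (limma, unadjusted p = 0.0153, adjusted p = 0.989), and at −0.52 without vehicle replicate 1. Dusp5, a phosphatase gene of ERK signalling, was higher in CerM libraries at 0.26 ± 0.11, also without overlap. Arc, Fos and Egr1, immediate early genes of synaptic activity, were at −0.37 ± 0.21, −0.34 ± 0.40 and −0.49 ± 0.26, and Nptx2, a pentraxin gene of excitatory synapses, at −0.11 ± 0.12. Arc had 43.5 to 46.6 TPM in CerM libraries, against 83.0, 52.5 and 45.6 TPM in vehicle replicates 1 to 3. Fos had 8.95 to 12.2 TPM in CerM libraries and 27.2 TPM in vehicle replicate 1, with 7.98 and 9.96 TPM in the other vehicle libraries. Egr1 had 52.4, 59.7 and 51.1 TPM in CerM replicates 1 to 3, against 121, 59.7 and 62.2 TPM in vehicle replicates 1 to 3. Vehicle replicate 1 was thus the highest library for all 3 genes. Without it the log2 fold changes were −0.12 for Arc, 0.16 for Fos and −0.16 for Egr1.

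**Figure D5:**
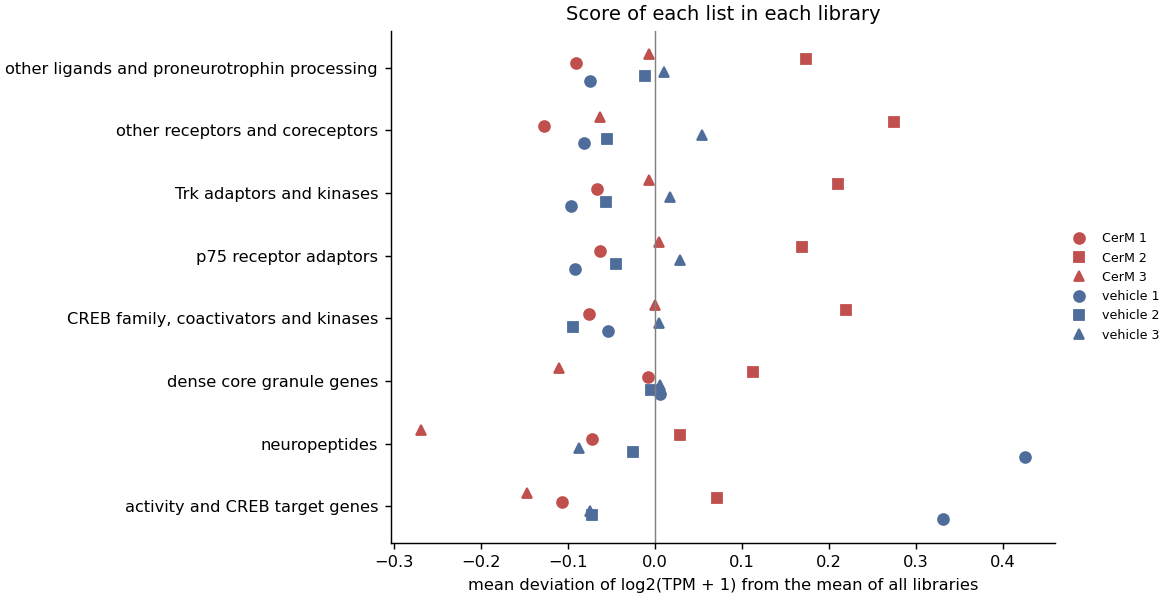
Score of each of 8 pathway lists in each library, on a log2(TPM + 1) scale centred on each gene's mean and averaged over the tested genes (red, CerM; blue, vehicle; symbols give the replicate number). CerM replicate 2 is highest in the first 6 lists, and vehicle replicate 1 is highest for neuropeptides (0.43) and for activity and CREB target genes (0.33).

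The genes whose pattern was most like each member's were sought among 8457 named genes with a mean of 10 TPM or more, by Pearson's r of log2(TPM + 1) over the 6 libraries. They were picked for a high r, so no p is given. For Bdnf these were Vps26a (r = 0.980), a subunit of the retromer, and Pno1 (0.975). For Ntf3 they were Abhd17c (0.996) and Ano3 (0.996), for Ntrk2 Zfyve21 (0.987) and Nat10 (0.987), and for Ntrk3 Plch2 (0.997) and Cpt1c (0.997). Sort1 was most like Cul4a (0.999) and Sulf2 (0.999), Vgf like Commd5 (0.991) and Sf3a2 (0.986), and Ngfr like Thumpd3 (0.982) and Sh3bgrl2 (0.982). Creb1 had the weakest matches, Cops2 (0.968) and Cdk8 (0.943), whose r fell to 0.701 and 0.356 without the 2 libraries farthest from the Creb1 median. No other match fell below 0.904 in that way. The 6 libraries are shared by all these pairs, and Ano3, like Ntf3, was lowest in vehicle replicate 1, at 13.3 TPM, with 24.6 to 31.4 TPM in the other 5.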

How the data were processed

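Hippocampal RNA was isolated with TRIzol, freed of DNA with DNase I and turned into TruSeq libraries, per the labels' protocols. The submitters' processing notes name GRCm39 and the tools HISAT2, StringTie and RSEM without roles. The authors deposited TPM values with 2 decimals; their 6 columns match the sample titles. Genes with a mean of at least 1 TPM (14916) were tested on log2(TPM + 1) by limma 3.58.1 (R 4.3.3), two-sided with a variance trend. Adjustment was by Benjamini-Hochberg over all of them, at 0.05. Fold changes are CerM over vehicle on that scale, which understates changes of low genes. Intervals are 95% confidence intervals. The fit was tested on simulated data. Named genes were the members, the 2 smallest p of each list and others fixed by name, of which some are not reported here. Promoter windows were matched by symbol in RefSeq tables of GRCm38.p6, which is not the files' build. GENCODE M21 gave transcripts and overlaps. Alternatives varied pseudocount, TPM minimum, scaling, variance model, weights and libraries. The members and lists were chosen with earlier results of these data known. Python 3.11.15 drew the figures.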

Additional observations from a re-analysis of the deposited data

How the results depend on the processing

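Under 19 alternatives, 3 of them added after seeing the data, none of the 8 members passed the test, and the smallest adjusted p of a member from limma was 0.231 (Ntrk2 with sample weights). With these weights Bdnf was at −0.221 on the log2 scale (limma, unadjusted p = 0.0493, adjusted p = 0.276). Ntrk2, with the smaller adjusted p, was below an unadjusted 0.05 as well, as were 2696 of all tested genes. Bdnf kept a negative and Ntrk2 a positive fold change throughout. The TPM minimum, the variance trend and the replicate block cannot move a fold change in this balanced design. Those settings therefore say nothing on the sign. Values here are log2, CerM over vehicle. Sample weights gave Ngfr 0.346, Ntf3 −0.0876, Ntrk3 −0.0780, Sort1 −0.0575 and Vgf −0.00907. The dentate granule score as a covariate gave Ntf3 −0.0603, Ntrk3 −0.0615 and Sort1 −0.0446. Ngfr was at 0.0570 with a pseudocount of 0.1 and at 0.00641 with 0.5, and Creb1 at −0.000823 after quantile normalization. Ntf3 was at −0.0381 without vehicle replicate 1 and CerM replicate 3. The cause of these turns was not tested. A minimum of 5 TPM gave no value for Ngfr.

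With each library left out in turn, and without both vehicle replicate 1 and CerM replicate 3, values ran from −0.202 to −0.0523 for Bdnf, −0.0776 to 0.397 for Ntf3, 0.0995 to 0.331 for Ntrk2, −0.0786 to 0.224 for Ntrk3, −0.227 to 0.345 for Ngfr, −0.0288 to 0.188 for Sort1, 0.000637 to 0.120 for Creb1 and −0.0897 to 0.242 for Vgf. The Bdnf to Ntrk2 ratio ran from −0.541 to −0.195 and the Ntf3 to Ntrk3 ratio from −0.0786 to 0.375. Limma called 0 to 7 genes with a library left out, the most without CerM replicate 3, none of them a member. It called 1 gene with the dentate granule score and 1 without vehicle replicate 1 and CerM replicate 3. Sample weights put 2696 genes at an unadjusted p below 0.05, beside 402, and called 0. Without a TPM minimum there were 824, and without vehicle replicate 3 there were 966. The median of other ligands and processing genes was −0.0505 after quantile normalization and −0.0510 to 0.107 with a library left out. With a library left out, the medians ran from −0.0185 to 0.131 for Trk adaptors and kinases, −0.0505 to 0.110 for other receptors and −0.0581 to 0.0560 for dense core granule genes, so all of these turned sign, as did other receptors with sample weights (−0.0259).

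Of 27 other named genes, 9 turned sign in a setting. With libraries left out as above, Chgb ran from −0.0448 to 0.0410, Crebbp ran from −0.0687 to 0.139, Crem ran from −0.194 to 0.0157, Fos ran from −0.663 to 0.242, Kidins220 ran from −0.162 to 0.0369, Mmp9 ran from −0.0360 to 0.211, Pcsk1 ran from −0.373 to 0.0425, Scg2 ran from −0.114 to 0.0572 and Sorcs2 ran from −0.0141 to 0.304. Sample weights gave Crebbp −0.0508, Crem 0.0667, Fos 0.0677, Mmp9 −0.196, Pcsk1 0.0621 and Sorcs2 −0.00983. The dentate granule score gave Crebbp −0.0123, Fos 0.114 and Pcsk1 0.0282, and the choroid plexus score Kidins220 0.0157 and Scg2 0.00345. Without vehicle replicate 1 and CerM replicate 3, the values were Fos 0.242, Kidins220 0.0369 and Pcsk1 0.0183. Quantile normalization gave Chgb 0.0671, Crebbp −0.00850, Mmp9 −0.0340 and Scg2 0.0292, and TPM without mitochondrial DNA genes Chgb 0.00731 and Scg2 0.00282.

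Same-numbered libraries correlated in their deviations at 0.0083, 0.20 and 0.22, and unlike-numbered ones at −0.2074 to 0.0651. For each CerM replicate the same-numbered vehicle library gave the highest value. These values do not settle whether the numbers mark pairs, which the labels do not say. The main fit did not take them as pairs. The replicate block called 0 genes, with 496 at an unadjusted p below 0.05. By design it leaves fold changes as they were, with Bdnf at −0.114 and Ntrk2 at 0.213. Depth is unknown, so no counting error can be given for low genes such as Ngfr.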
